A study of Mus musculus with 6 samples.

Results

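A group of 9 genes for the ion pumps, exchangers and bicarbonate signalling of sperm was followed in RNA sequencing of whole testes from mice labelled WT or Ccdc117ko. They were chosen by symbol from a table of 36652 genes: Atp1a4, Atp1b3, Slc9c1, Slc9b1, Slc9b2, Adcy10, Hvcn1, Atp2b4 and Slc26a8. All 9 were found once, all 9 had the mean of at least 0.5 normalized counts needed for testing, and 8 had a mean of at least 10. The samples were 3 testis libraries labelled WT and 3 labelled Ccdc117ko, every one from 8-week-old mice. The sources used here give neither the strain nor the nature of the Ccdc117 allele, and do not say that each library was a separate mouse; p-values therefore reflect only library-to-library spread. A normalized count is the number of reads of a gene divided by 1 scaling factor per library.

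Sperm run on gradients of sodium, protons and calcium across the membrane of a long tail. The Na,K-ATPase sets the sodium gradient, sodium-proton exchangers spend it to export acid, a calcium pump clears calcium, and bicarbonate entering the cell switches on soluble adenylyl cyclase, whose product cyclic AMP starts fast swimming. Several of these proteins exist as forms made almost wholly in the male germ line, and their transcripts are laid down in spermatocytes and spermatids, well before the sperm leaves the testis.

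Atp1b3, Atp2b4, Slc26a8 and Adcy10 had the highest level per kilobase of exon in their families in both genotypes, and none of the 9 genes differed between genotypes at an adjusted p under 0.05 in limma. Atp1b3 and Atp1a4 were the most abundant per kilobase of exon, and Slc9b2 had 0 to 8 reads per library. Leaving aside Slc9b2 with its few reads, the lowest levels relative to WT in the libraries labelled Ccdc117ko were those of Atp2b4 and Slc9c1, 19.1% and 16.2% under WT on the mean of normalized counts. Hvcn1 stood the other way, with a mean 69.7% above WT from few reads and with overlapping values. Of all genes tested, 6.80% passed, with 3.70% higher and 3.10% lower, so a count of 0 in 9 is not a result about these genes. At an unadjusted p under 0.05 there were 5 of 9, where all tested genes had 22.7%. The authors' deposited table lists 2 of the 9 with an FDR under 0.05, Atp2b4 (0.000108) and Slc9c1 (0.000748), against 11.5% of its genes. With limma-voom on recovered reads 0 of the 9 were called, beside 2425 of all 32783 genes tested, so that count is not a result about these genes either.

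A stricter set, the 10-count set, kept 22878 genes whose mean reached 10 normalized counts. In it limma called 16.6% of genes, 8.35% higher and 8.25% lower, and 2 of the 8 genes tested there, Slc9c1 and Atp2b4, were lower. At an unadjusted p under 0.05 it held 6 of these 8, beside 30.7% of its genes.

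The recovered reads came to 35791616 to 43461692 per library. Ccdc117 itself had a mean of 3805 ± 138 normalized counts under the WT label and 3719 ± 220 under the other (SD, n = 3 each), so its total over the gene checks no label, and directions are those of the libraries as labelled. With all 6 libraries limma called 1212 genes higher and 1016 lower, and with transcript length and GC content adjusted for (the length-adjusted fit) 1116 higher and 605 lower.

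**Figure D1:**
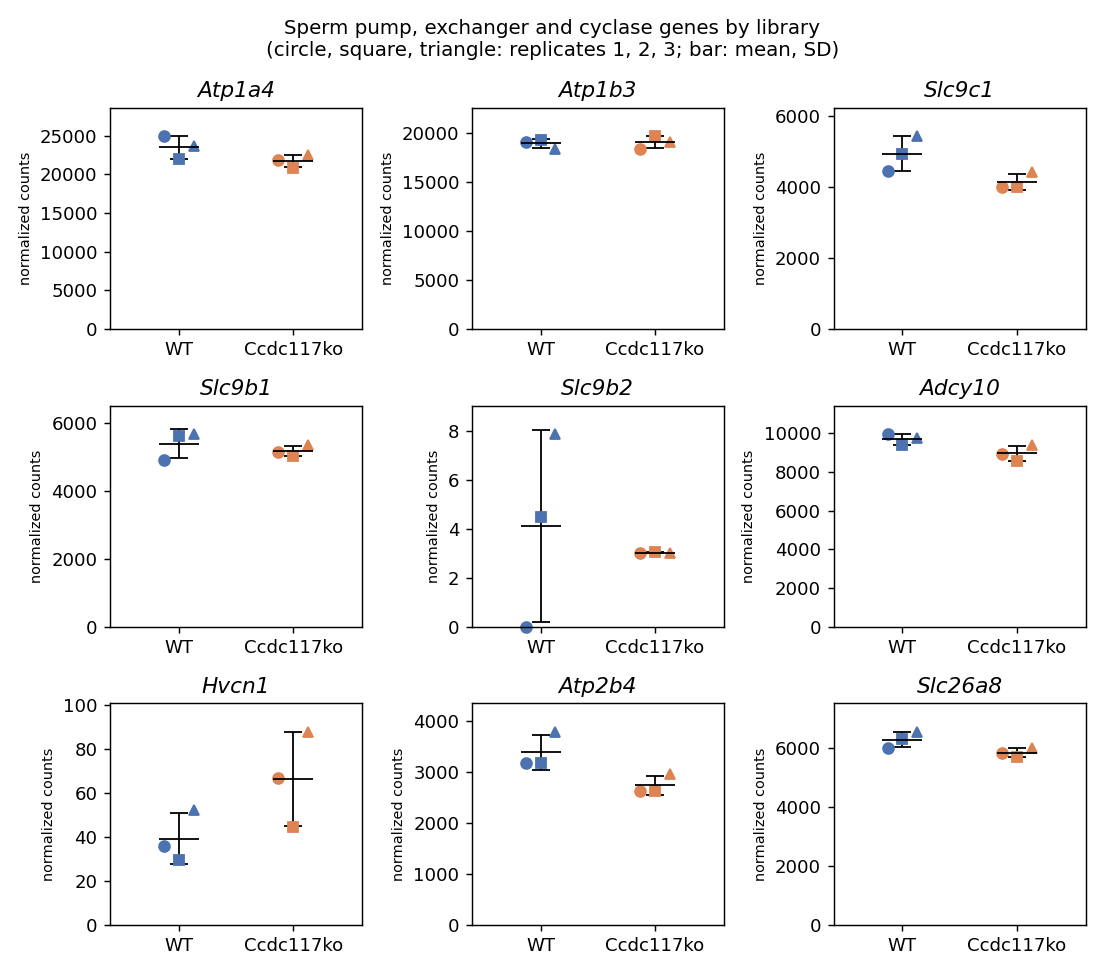
Normalized counts (y axis, from 0) of each of the 9 genes in the 3 WT and 3 Ccdc117ko libraries; symbols mark replicates 1, 2 and 3, and bars give the mean and SD. The genotypes do not overlap for Slc9c1, Adcy10, Atp2b4 and Slc26a8, and they overlap for the other genes, with Hvcn1 and Slc9b2 far below the rest.

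Levels of different genes were compared as normalized counts per kilobase of exon, over all 6 libraries. The length was that of all exons of a gene together. For Adcy10 this was 8739 bases, beside 5569 in its longest transcript, and for Slc9b1 3689 beside 2248. The order of the genes by longest transcript could differ and was not computed. Atp1b3 had 7939 (range 7690.3 to 8213), above 99.2% of the tested genes with a known length, and Atp1a4 had 6167 (5688 to 6793), above 98.8%. Next came Slc9b1 at 1435, Slc26a8 at 1276, Slc9c1 at 1118 and Adcy10 at 1069. Each of these 4 overlapped its neighbour in the order when ranges were taken over all libraries. Within every single library, Slc9b1 stood above Slc26a8 and Slc26a8 above Slc9c1. The order of Slc9c1 and Adcy10 changed from library to library. Atp2b4 followed at 250.1 (215 to 309), Hvcn1 at 14.8 (8.31 to 24.6) and Slc9b2 at 0.649 (0 to 1.43). None of these last steps, nor those from Atp1b3 to Atp1a4 and from Atp1a4 to Slc9b1, had overlapping ranges.

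**Figure D2:**
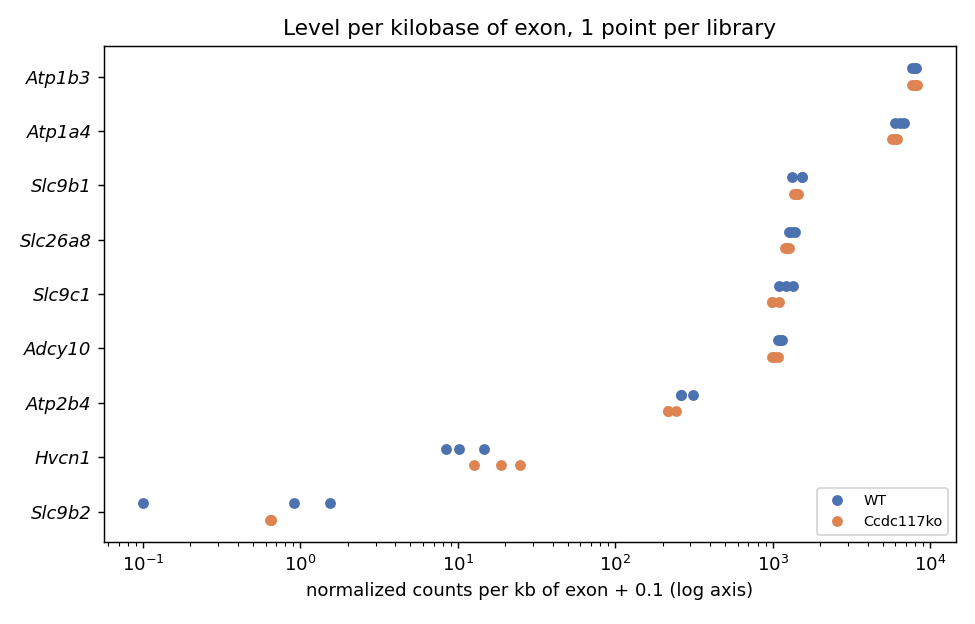
Level per kilobase of exon (x axis, normalized counts per kilobase plus 0.1, log scale) of each of the 9 genes, 1 point per library, WT in blue and Ccdc117ko in orange. Atp1b3 and Atp1a4 stand above the rest, Slc9b1, Slc26a8, Slc9c1 and Adcy10 lie close together, and Slc9b2 is last.

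Atp1a4 encodes the catalytic alpha subunit of the Na,K-ATPase that is known from sperm, where it is needed for motility. The gene is ENSMUSG00000007107 (mm10 chromosome 1, minus strand, 172223513 to 172258414). It had 24910.2, 21941 and 23639 normalized counts in WT replicates 1 to 3, beside 21855, 20858 and 22474 in the Ccdc117ko libraries. WT replicate 2 fell inside the Ccdc117ko range, so the groups overlapped. The log2 change was -0.11 (SE 0.05, 95% interval -0.23 to 0.01, limma adjusted p = 0.247), and -0.04 in the length-adjusted fit (adjusted p = 0.662).

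Atp1b3 encodes a beta subunit, which carries the alpha subunit to the membrane. The gene is ENSMUSG00000032412 (chromosome 9, minus strand, 96332655 to 96364442). Its normalized counts were 19077, 19290.5 and 18387.5 in WT and 18372, 19621.5 and 19051 in Ccdc117ko. The WT range lay inside the Ccdc117ko range. The log2 change was 0.01 (SE 0.04, 95% interval -0.08 to 0.09, limma adjusted p = 0.949), the narrowest interval of the 9 genes. Atp1b3 held 90.2% ± 0.2 of the summed beta subunit level per kilobase in WT and 91.2% ± 0.5 in Ccdc117ko, without overlap (SD, n = 3 each). An exact two-sided permutation test gave p = 0.1, the smallest that 3 against 3 allows, and 0.2 after Benjamini-Hochberg adjustment over the 8 family shares computed. Atp1b2 had 1889 ± 27.9 and 1667 ± 62.6 normalized counts (log2 change -0.18, limma adjusted p = 0.0534) and Atp1b1 1236 ± 32.1 and 1120.5 ± 37.1 (-0.14, adjusted p = 0.131), both without overlap. A pseudogene, Gm1848, shares sequence with 11.7% of the 50-base words of Atp1b3 and had 56.3 ± 5.39 and 52.7 ± 8.28 normalized counts.

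The sodium-proton exchangers of sperm differed by orders of magnitude among themselves. Slc9c1 encodes the exchanger of the sperm tail that carries a voltage sensor and a cyclic nucleotide-binding domain and is needed for motility. Slc9b1 and Slc9b2 encode a pair of related exchangers, and their genes lie next to each other in the same direction on chromosome 3. Slc9b2 (ENSMUSG00000037994, plus strand, 135307700 to 135345387) ends 2641 bases before Slc9b1 (ENSMUSG00000050150, plus strand, 135348029 to 135397827) starts. The 250 bases before the RefSeq start of each exchanger gene (GRCm38.p6) are shown 5′ to 3′ because the neighbours Slc9b1 and Slc9b2 had such different levels; capitals mark CCAAT, read on either strand.
Slc9b1 (chr3:135347779-135348028, plus strand): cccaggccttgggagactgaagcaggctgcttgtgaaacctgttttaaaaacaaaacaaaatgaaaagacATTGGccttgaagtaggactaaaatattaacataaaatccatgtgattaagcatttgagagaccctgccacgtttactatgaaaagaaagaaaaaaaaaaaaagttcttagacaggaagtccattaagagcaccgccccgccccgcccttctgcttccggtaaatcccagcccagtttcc
Slc9b2 (chr3:135307450-135307699, plus strand): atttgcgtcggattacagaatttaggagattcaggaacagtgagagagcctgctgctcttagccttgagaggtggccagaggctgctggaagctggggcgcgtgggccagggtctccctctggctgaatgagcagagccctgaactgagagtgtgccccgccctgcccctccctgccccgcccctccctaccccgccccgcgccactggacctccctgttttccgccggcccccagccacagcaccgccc
Slc9c1 (chr16:45535016-45535265, plus strand): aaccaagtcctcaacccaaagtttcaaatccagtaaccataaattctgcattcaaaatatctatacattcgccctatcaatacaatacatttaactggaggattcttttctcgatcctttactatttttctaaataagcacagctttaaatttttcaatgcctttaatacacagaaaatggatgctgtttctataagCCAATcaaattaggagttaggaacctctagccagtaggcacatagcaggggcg

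Over the whole 300-base window, which adds 50 bases after the start, GC content was 46.3% for Slc9b1, 63.3% for Slc9b2 and 37.3% for Slc9c1, beside a median of 52.7% over 32851 RefSeq promoter windows. For 8 of the 9 genes the table held a window, with 2 for Atp1b3. CCAAT was found on either strand in 4 of these 9 windows (Slc9b1, Slc9c1, Adcy10 and Slc26a8) and in 37.4% of all windows. The cAMP response element TGACGTCA was in 0 of the 9 and in 1.79% of all, and TATAAA in 0 of the 9 and in 13.6%. The shorter TGACG, which TGACGTCA also contains, was in 3 of the 9, those of Atp2b4 and both of Atp1b3, and in 20.8% of all windows. The windows of Atp2b4 (133753698 to 133753997) and of Atp1b3 at 96363666 to 96363965 lay inside the span of the gene. In both of these the match lay after the start. A match of letters is a description and does not show a binding site.

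Slc9b1 had 4909.5, 5627 and 5677 normalized counts in WT replicates 1 to 3, beside 5167, 5035 and 5352 in the Ccdc117ko libraries. WT replicate 1 was the lowest of the 6, and the groups overlapped. Its log2 change was -0.06 (SE 0.06, 95% interval -0.20 to 0.08, limma adjusted p = 0.63). Slc9b2, 2641 bases upstream, was close to the limit of detection. Slc9b2 had 0, 5 and 8 reads in WT replicates 1 to 3, beside 3 in each Ccdc117ko library, and a count of 0 allows up to 3 reads. No fold is given for Slc9b2, whose fitted log2 change had a 95% interval from -1.64 to 1.92.

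Slc9c1 (ENSMUSG00000033210, chromosome 16, plus strand, 45535309 to 45607001) had 4444, 4938 and 5427 normalized counts in WT and 4007, 3994 and 4409 in Ccdc117ko. All 3 Ccdc117ko values lay below all 3 WT values, by 34.95 normalized counts at the closest. Its log2 change was -0.25 (SE 0.08, 95% interval -0.43 to -0.08), with a limma adjusted p of 0.0897. In the 10-count set Slc9c1 passed (limma adjusted p = 0.0234), and it kept that call with length and GC adjusted for (-0.22, adjusted p = 0.0344). There, removing any of 4 libraries ended the call: WT replicate 2 gave a limma adjusted p of 0.0620, WT replicate 3 one of 0.0952, Ccdc117ko replicate 1 one of 0.0708 and Ccdc117ko replicate 2 one of 0.0941. In the full set, of the 6 fits that each left out a library, Slc9c1 passed only in the one without WT replicate 1 (limma adjusted p = 0.0462).

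Hvcn1 encodes a voltage-gated proton channel, a route for acid out of cells. The gene is ENSMUSG00000064267 (chromosome 5, plus strand, 122206804 to 122242297). Few reads were behind it: 33, 33 and 53 for WT, beside 67, 44 and 87 for Ccdc117ko. After scaling these were 35.8, 29.6 and 52.1 against 67.0, 44.7 and 87.7 normalized counts, so Ccdc117ko replicate 2 lay inside the WT range and the other two above it. The log2 change was 0.73 (SE 0.30, 95% interval 0.04 to 1.43, limma adjusted p = 0.194). It ranged from 0.51 without Ccdc117ko replicate 3 to 0.99 without Ccdc117ko replicate 2. Exons of Tctn1, on the opposite strand, overlap 1574 bases of Hvcn1 exons, and Tctn1 had 2666 ± 115 and 2692 ± 67.6 normalized counts. The libraries were stranded, but the sources used here do not say whether counting used strand, so reads of Tctn1 within the Hvcn1 count cannot be told apart. Their part in the values of Hvcn1 was not tested.

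Atp2b4 encodes a plasma membrane calcium pump that extrudes calcium from sperm and is needed for motility. The gene is ENSMUSG00000026463 (chromosome 1, minus strand, 133699457 to 133801041). The WT libraries had 3188, 3189 and 3783 normalized counts and the Ccdc117ko libraries 2628, 2628 and 2960. WT replicate 3 was the highest of the 6, and no value overlapped between genotypes. The log2 change was -0.30 (SE 0.08, 95% interval -0.49 to -0.12, limma adjusted p = 0.0615). In the 10-count set Atp2b4 passed (limma adjusted p = 0.0126), a call that removing Ccdc117ko replicate 2 ended (limma adjusted p = 0.0604). The length-adjusted log2 change was -0.14, with a limma adjusted p of 0.249 in the full set and of 0.147 in the 10-count set. Atp2b4 has the longest transcript of the 9, with 11725 bases.

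The pump remained the main one of its family in both genotypes. Of the summed level of the 4 plasma membrane calcium pump genes per kilobase, Atp2b4 held 79.8% ± 3.3 in WT and 79.1% ± 1.5 in Ccdc117ko, with overlap (exact two-sided permutation p = 0.8, n = 3 each), and 71.0% in both by longest transcript. Atp2b1 fell from 563 ± 65.6 to 408 ± 42.9 normalized counts, a log2 change of -0.46 (SE 0.11, limma adjusted p = 0.0452), a call lost in the length-adjusted fit (-0.36, adjusted p = 0.106).

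Slc26a8 encodes an anion transporter of the germ line that sits at the annulus of the sperm tail. The gene is ENSMUSG00000036196 (chromosome 17, minus strand, 28637783 to 28690233). Its normalized counts were 6020, 6325 and 6541 in WT and 5826, 5699 and 6000.3 in Ccdc117ko. Every Ccdc117ko value was below every WT value, though Ccdc117ko replicate 3 came within 19.4 normalized counts of WT replicate 1. The log2 change was -0.11 (SE 0.04, 95% interval -0.20 to -0.01, limma adjusted p = 0.178), and -0.03 in the length-adjusted fit (adjusted p = 0.769). Among 11 Slc26a genes Slc26a8 held 81.2% ± 1.1 of the level per kilobase in WT and 81.7% ± 0.4 in Ccdc117ko, with overlap (exact two-sided permutation p = 0.6, n = 3 each).

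Adcy10 encodes soluble adenylyl cyclase, the enzyme that bicarbonate and calcium stimulate in sperm. The gene is ENSMUSG00000026567 (chromosome 1, plus strand, 165485183 to 165576774). The values were 9955, 9399.9 and 9777 normalized counts in WT and 8932, 8593 and 9392 in Ccdc117ko, separated by 8.41 normalized counts at the closest pair. Its log2 change was -0.11 (SE 0.04, 95% interval -0.21 to -0.02, limma adjusted p = 0.159), and 0.00052 in the length-adjusted fit (adjusted p = 0.997). Adcy10 made up 79.9% ± 1.0 of the level per kilobase of 10 adenylyl cyclase genes in WT and 82.7% ± 0.8 in Ccdc117ko. The WT shares of 81.0%, 79.6% and 79.1% lay below the Ccdc117ko shares of 81.9%, 82.7% and 83.4% (exact two-sided permutation p = 0.1, adjusted 0.2, n = 3 each). The membrane-bound cyclase gene Adcy9 fell from 124 ± 15.8 to 66.8 ± 12.8 normalized counts, a log2 change of -0.89 (SE 0.18, limma adjusted p = 0.0295).

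**Figure D3:**
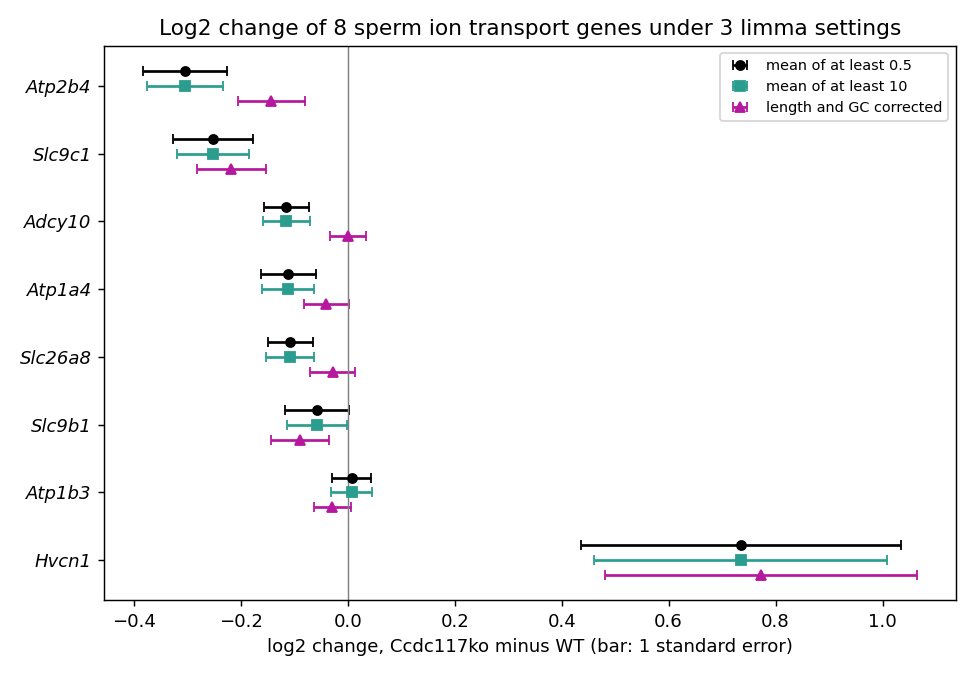
Log2 change of normalized counts, Ccdc117ko minus WT (x axis), for 8 of the 9 genes, with bars of 1 standard error, in limma on the full set, on the 10-count set and in the length-adjusted fit; Slc9b2 is left out for its few reads. Atp2b4 goes from -0.30 to -0.14 and Adcy10 from -0.11 to 0.00052 with length and GC adjusted for, while Slc9c1 goes from -0.25 to -0.22.

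Across the 9 genes, 6 had a log2 change below 0, with a median of -0.11, where 49.8% of all tested genes lay below 0 and the median was 0.00. In the length-adjusted fit the median of the 9 was -0.029, beside -0.016 over all tested genes. The values of the genotypes did not overlap for 4 of the 9, all lower in Ccdc117ko, where 27.0% of all tested genes had no overlap and 13.3% had none and were lower. Among the WT libraries replicate 3 was the highest for 6 genes, and among the Ccdc117ko libraries replicate 2 was the lowest for 7. Over 14248 well-expressed protein-coding genes (mean of 50 normalized counts or more), the gene whose log2 values ran closest to those of Slc26a8 over the 6 libraries was Ak9 (Pearson's r = 0.999), and for Slc9c1 it was Trip11 (r = 0.998). These are descriptions over 6 libraries that share the genotype difference and the depth, and 364 and 317 genes had an r above 0.95 with Slc26a8 and Slc9c1.

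Fold changes in these libraries followed transcript length, and the 9 genes, except Slc9b2 with its few reads, were read against genes of like length. Among 14256 protein-coding genes the median log2 change went from 0.10 in the shortest of 5 length bins to -0.14 in the longest. Adcy10, with 5569 bases, was at -0.11 in a bin with a median of -0.14, and 54.5% of that bin lay below it. In the same bin 15.7% lay below Atp2b4, and 16.8% lay below Slc9c1 in the fourth bin, whose median was -0.09. Atp1a4 and Slc26a8 were in the middle bin, median -0.04, with 33.5% and 34.5% below them. Atp1b3 and Slc9b1 were in the second bin, median 0.01, with 50.6% and 35.1% below them. For Hvcn1, 99.7% of its bin lay below, from 33 to 87 reads per library and with overlapping genotypes. The genes of the bins had a mean of at least 50 normalized counts, and Hvcn1 was near that limit at 52.8.

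**Figure D4:**
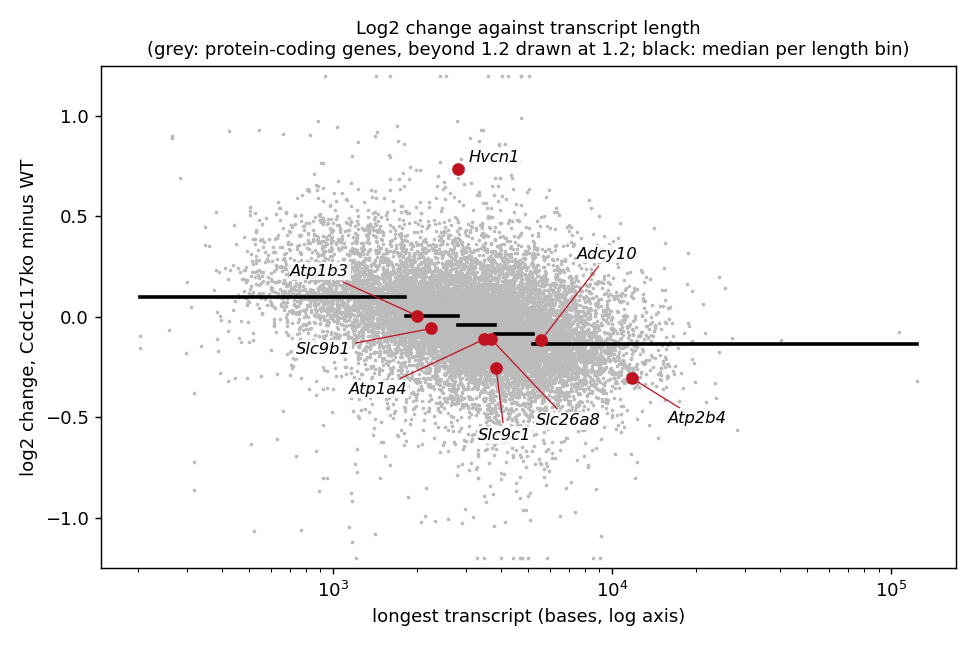
Log2 change, Ccdc117ko minus WT (y axis), against the longest transcript (x axis, log scale) of protein-coding genes averaging 50 normalized counts or more (grey), the median of each of 5 length bins (black bars) and 8 of the 9 genes (red). The bin medians step from 0.10 to -0.14. Adcy10 lies close to its bin's median, Atp2b4 and Slc9c1 lie below theirs, and Hvcn1, with few reads, lies at 0.73.

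The other genes of these pathways were counted by lists. Fxyd6, a regulator of the Na,K-ATPase, fell from 1857 ± 28.2 to 1495 ± 122 normalized counts, a log2 change of -0.32 (SE 0.06, limma adjusted p = 0.0288). Slc9a3r1, a scaffold protein that binds exchangers, rose from 1416 ± 45.5 to 1683 ± 57.6, a log2 change of 0.25 (limma adjusted p = 0.0273; 0.0552 in the length-adjusted fit). In the cyclic AMP list 0 were higher and 2 lower of 25 (median -0.12): Adcy9 and the phosphodiesterase gene Pde10a, at -0.42 (adjusted p = 0.0188). The cyclic AMP list had 2 higher and 2 lower in the length-adjusted fit (median -0.02), and 2 higher and 7 lower in the 10-count set. Of 25 bicarbonate and anion transport genes 0 were higher and 1 lower (median -0.11), the anion exchanger Slc4a3, which fell by 0.30 (adjusted p = 0.0329; 0.191 in the length-adjusted fit). Other calcium pumps and exchangers had 0 higher and 1 lower of 12 (median -0.02), the pump gene Atp2b1. Of 4 genes for annulus proteins and a partner of Slc26a8, Septin7 was called lower, by 0.20 (adjusted p = 0.0408, but 0.0531 with upper-quartile scaling and 0.162 in the length-adjusted fit), and 0 higher (median -0.05). The bicarbonate, calcium and annulus lists had 0 calls in the length-adjusted fit, with medians of -0.03, 0.10 and -0.02, and 3, 3 and 1 lower in the 10-count set. The background for every list, cell type markers included, was 6.80% of genes called in the full set and 16.6% in the 10-count set. In the length-adjusted fit 1721 of 32783 genes were called. No list was tested as a set. Each of these 7 calls held in 0 to 2 of the 6 fits with 1 library left out, and in 3 to 6 of 6 in the 10-count set.

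Whole testis mixes germ cells and somatic cells, and for each of the 9 genes fewer cells of a type and less RNA per cell cannot be told apart. Markers of the cell types were therefore measured in the same libraries. All 10 round spermatid markers rose (9 in the length-adjusted fit), among them Catsper4 (0.45, limma adjusted p = 0.0148) and Acrv1 (0.43, adjusted p = 0.0173), with a median of 0.41 and a summed level of 50060 to 56073 normalized counts in WT and 64603 to 68101 in Ccdc117ko. Of 10 elongating spermatid markers 1 rose, the linker histone Hils1 (0.28, adjusted p = 0.0128), and 0 fell (median 0.10, or -0.03 in the length-adjusted fit), with summed levels of 751353 to 807403 and 787793 to 825569. Spermatocyte markers had 1 higher and 2 lower of 10 (median -0.11; 75513 to 77155 and 74853 to 76730.3). Spermatogonial markers had 2 lower of 10 (median -0.19; 7799.8 to 8154 and 6913 to 7437) and Sertoli markers 6 lower of 10, or 3 in the length-adjusted fit (median -0.24; 53031 to 54377 and 47895 to 49835). In the full set these marker calls mostly fell away when 1 library was left out. The round spermatid count was 10 without WT replicate 1, 7 without Ccdc117ko replicate 1 and 0 without any of the other 4. The Sertoli count was 4 without WT replicate 1 and 0 without any of the other 5. In the 10-count set 10 round spermatid markers were higher and 7 Sertoli markers lower. Elongating spermatid markers had 3 higher and 1 lower there, spermatocyte markers 1 higher and 3 lower, and spermatogonial markers 0 higher and 3 lower. In that set the called round spermatid and Sertoli markers with the largest changes were followed with 1 library left out. Acrv1, Catsper4, Spaca4 and Lyzl6 kept their calls in 6 of 6 fits. Among Sertoli markers Kitl, Dhh and Inhbb did so, and Wt1 kept its call in 5. None of these markers was at 0 in all libraries. The part of these shifts in the values of the 9 genes was not tested.

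Among the remaining cell types, Leydig markers were called 3 higher and 2 lower of 8, or 3 and 1 in the length-adjusted fit (median 0.23; summed 67787 to 78408 in WT and 80030 to 92941 in Ccdc117ko). In the 10-count set 4 Leydig markers were higher and 3 lower. Peritubular myoid markers had 1 lower of 6, Myh11 (-0.26, limma adjusted p = 0.0489, but 0.059 with upper-quartile scaling). Macrophage markers had 1 lower of 8, Mrc1 (-0.28, limma adjusted p = 0.0238, but 0.0893 in the length-adjusted fit). The calls of Myh11 and Mrc1 held in 0 and 1 of the 6 fits with 1 library left out, and in 3 and 6 in the 10-count set. Endothelial, red blood cell and epididymal markers had 0 calls over 7, 6 and 4 tested genes in limma, with 0, 1 and 1 at an unadjusted p under 0.05. The summed epididymal level was 199 to 234 normalized counts in WT and 183 to 202 in Ccdc117ko.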

How the data were processed

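Testis RNA of 3 WT and 3 Ccdc117ko libraries was turned into stranded mRNA libraries, per the labels' protocols. STAR, DESeq2 and mm10 are named in the submitters' processing notes. How reads were counted, and whether by strand, is not given in the sources used here. Expression was deposited as log2 values, read from the values themselves as log2(normalized count + 1), since 100% of low values were whole multiples of 1 step per library within 0.01. Their log2 fold change, p-value and FDR columns come from the deposited table, whose test is not stated. Fold changes on this scale understate those of genes with few reads.

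Limma-trend (limma 3.58.1, R 4.3.3) was fitted to the deposited log2 values of 32783 genes with a mean of at least 0.5 (the full set), genotype as the only term, Benjamini-Hochberg adjustment over all genes and a threshold of 0.05. This follows the design set for normalized values. Genes, lists and tests were chosen with earlier results of these data known. Named genes were the 9, up to 4 called genes per list or the 2 most abundant, and the closest gene in pattern; Atp1b1, Atp1b2, Tctn1 and Gm1848 were named after their values were seen. Some related genes, and the shares and lists that hold them, are not reported here. Lengths came from GENCODE M21, promoters from RefSeq. The length and GC correction removed natural splines, fitted on genes with a mean of at least 50, from each library. No 2 libraries were duplicates (chi-square per degree of freedom 4.68 to 7.50). The fit was tested on simulated data, in which the spread between libraries was set and not measured. There limma called 2.67% of genes changed 1.25-fold, 45.3% of those changed 1.5-fold and 98% of those changed 3-fold, with 0 false calls. Small changes can therefore go uncalled.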

Additional observations from a re-analysis of the deposited data

How the results depend on the processing

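In the 10-count set (mean of at least 10) 3798 genes passed and 2 of the 9 genes were called lower, Slc9c1 (-0.25) and Atp2b4 (-0.30). With the length and GC correction added there, a setting chosen after seeing the data, 2753 of 22878 genes passed. Of these 1045 were lower, and Slc9c1 (-0.22) was the only 1 of the 9 to pass. That correction turned Atp1b3 to -0.029 and Adcy10 to 0.00052, with either filter and with the replicate block. A pseudocount of 8 turned Slc9b2 to -0.081. Same-numbered libraries did not deviate together (Pearson's r of -0.08, -0.05 and 0.04 over genes), so the numbers were not taken as pairs. The replicate block left 703 calls, 1 of them among the 9 (Atp2b4, -0.30, adjusted p = 0.0459 in limma), and 403 with the length and GC correction, 0 of them among the 9. Without 1 library at a time, all called genes ran from 17 to 1783, and from 1735 to 4026 with a mean of at least 10. The 9 then had 0 to 1 lower calls, and 0 to 3 lower and 0 to 1 higher with that mean. The log2 changes ran from -0.16 to -0.07 for Atp1a4, -0.016 to 0.032 for Atp1b3 (-0.013 without WT replicate 3), -0.32 to -0.18 for Slc9c1, -0.12 to -0.02 for Slc9b1, -0.79 to 0.78 for Slc9b2, -0.15 to -0.08 for Adcy10, 0.51 to 0.99 for Hvcn1, -0.36 to -0.22 for Atp2b4 (-0.345 and -0.345 without WT replicates 1 and 2, -0.275 without Ccdc117ko replicate 1) and -0.14 to -0.08 for Slc26a8. With a mean of at least 10, Atp1a4 passed without WT replicate 2 (adjusted p = 0.0455 in limma), Slc26a8 without WT replicate 1 (0.0429) and Hvcn1 without Ccdc117ko replicate 2 (0.0451). The cause of these changes was not tested. The genotype difference of the family shares moved by less than 1 SD in all 56 alternatives. With 1 library left out its sign still changed for Atp2b4 (-2.49 to 0.69 percentage points) and Slc26a8 (-0.08 to 0.91). It held for Atp1b3 and Adcy10. The shares themselves moved by more with the longest transcript as length (Adcy10 in WT from 79.9% to 85.3%). The edgeR and DESeq2 alternatives were not run, because the deposited unit is log2; limma-voom on recovered reads stood in for them.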
